A study of Mus musculus with 10 samples.

Results

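Among single cells sorted from small intestinal crypts of C57Bl/6 mice, 211 wells carried the Lgr5 transcript in a way that set them apart as candidate crypt base columnar stem cells. They were 211 of 1615 used wells in 7 sorted libraries, and of 2116 used wells in all 10 libraries of the study. A well was used when it held at least 1000 endogenous transcripts. It was taken as Lgr5-positive when it held at least 2 Lgr5 transcripts, no Atoh1 transcript, and less than 2% of its transcripts from the goblet cell genes Muc2, Fcgbp, Zg16, Clca3, Tff3 and Agr2. The comparison group was the 678 sorted wells that met the same limits with 0 Lgr5 transcripts, called Lgr5-zero wells. A further 108 wells within the limits held exactly 1 Lgr5 transcript and were placed in neither group. Because the members were chosen by measured values, Lgr5, Atoh1 and the 6 goblet genes are described here and were not tested. A count of 0 in 1 well does not show that the cell lacked the transcript.

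Both groups came from the same plates, so they shared strain, tissue, dissociation, sort and library preparation. Cells were sorted singly into 384-well plates with ERCC spike-in RNA and processed by CEL-seq2, which counts the 3′ ends of transcripts with molecular barcodes. The 7 sorted libraries carry the codes GK5a (5 libraries, replicates 1 to 5) and GK5b (2 libraries, replicates 6 and 7). The titles of replicates 6 and 7 end in different letters, G and L, which the labels do not explain. The other 3 libraries hold hand-picked doublets and triplets from mildly dissociated crypts and enter no comparison. The labels name no treatment, allele, sex, age or sort gate, and do not tie libraries to animals, so the p-values below measure only the spread between these libraries.

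Crypt base columnar cells lie between Paneth cells at the bottom of the crypt and divide to replace the epithelium. Lgr5, a receptor for R-spondins, is both a target and an amplifier of the Wnt signal that these cells receive. Their daughters move up the crypt, lose the Wnt signal, and become absorptive enterocytes or, after Notch signalling is lost and Atoh1 is gained, secretory goblet, Paneth and enteroendocrine cells.

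The members were spread over all 7 sorted libraries, with 23, 43, 39, 27, 40, 6 and 33 wells in replicates 1 to 7. They made up 2.27% to 18.7% of the used wells of a library, with a median of 12.6%. Replicate 6 was the lowest, with 6 members (2.27%, exact 95% interval 0.839% to 4.88%, for counting error only). In replicate 6 only 34 of 264 used wells met the limits on Atoh1 and goblet genes, and 17.6% of those 34 were members, within the 15.3% to 28.7% of the other libraries. Of 240 used wells with at least 2 Lgr5 transcripts, 28 also held Atoh1 and 2 were at or above the goblet limit, with 1 well in both. Members held a median of 4 Lgr5 transcripts, at most 29, and 71 of them sat exactly at the limit of 2. Lgr5 stood at 136, 386 and 528 CPM (lowest, median and highest library) in the members. The median depth was 8831 transcripts in Lgr5-positive wells, 5161 in wells with 1 Lgr5 transcript and 6813 in Lgr5-zero wells. Summed over wells, a library held 132346 to 640313 transcripts in its Lgr5-positive wells and 603423 to 1452030 in its Lgr5-zero wells.

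Lgr5 was also counted in wells rich in markers of another cell type. Of 168 wells with at least 10% goblet transcripts (median depth 8547), 8 held 1 Lgr5 transcript or more (4.76%) and 0 held at least 2, which allows a share of up to 1.79% (3 counts of 168). Of 51 wells with at least 10% enterocyte transcripts (median depth 4761), 1 held any Lgr5 (1.96%). Of 53 wells with at least 10% Paneth transcripts (median depth 4171), 10 held any (18.9%) and 5 held at least 2 (9.43%, exact 95% interval 3.13% to 20.7%). Within the limits, 211 of 997 wells (21.2%, median depth 7200) held at least 2.

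The 2 groups were compared by summing the wells of each group within each library and testing the 7 pairs of sums with limma, with the library as a block. Values of a gene are given in this order: lowest, median and highest of the 7 libraries, in CPM, transcripts of a gene scaled to a common library total after TMM. Each fold change is a difference of log2(CPM + 5) values, given with its standard error, and this scale understates changes of low genes. In sums of wells, a gene carried by more wells and a gene at a higher level per well cannot be told apart. Of 7140 genes tested, 849 (11.9%) were higher in Lgr5-positive wells and 1682 (23.6%) were lower at an adjusted p under 0.05. Within the codes, the 5 GK5a libraries alone gave 714 higher and 1521 lower calls and the 2 GK5b libraries alone 326 and 515. Without replicate 6, which holds 6 member wells, the calls were 778 higher and 1767 lower. In wells of 4000 to 16000 transcripts alone, 459 genes were higher and 1177 lower. With library totals in place of TMM scaling the calls were 1210 higher and 1316 lower, so 47.9% of calls were higher, against 33.5% with TMM. Over all genes tested the median log2 fold change was -0.07 with TMM and 0.03 with library totals, a shift of 0.10.

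The composition of the groups differed beyond Lgr5. Among Lgr5-positive wells, 5 held at least 2% enterocyte, 1 enteroendocrine, 0 Paneth, 0 immune and 2 tuft transcripts, 8 wells in all. Among Lgr5-zero wells the counts were 171 enterocyte, 38 enteroendocrine, 28 Paneth, 7 immune and 0 tuft, 241 wells in all. The main results are therefore also given without these wells, that is for 203 Lgr5-positive wells against 437 Lgr5-zero wells. In that comparison 536 of 7029 genes were higher (7.63%) and 1028 were lower (14.6%). Of these calls, 1354 were also calls in the comparison of all wells, 1349 of them in the same direction. Without replicate 5 the lineage-free comparison called 357 genes higher.

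The members carried the other markers of crypt base columnar cells. All 4 further markers given for these cells, Gkn3, Igfbp4, Clca4 and Slc12a2, were higher in Lgr5-positive wells. Of a list of 32 stem cell genes, 24 passed the filter on low values, 23 were higher and 0 lower, with a median log2 fold change of 1.76, beside -0.07 over all genes. The count was 23 again without wells of other lineages, with a median of 1.47. The 1 tested gene not called was Bmi1, a Polycomb gene long used as a marker of slower-cycling crypt cells (log2 fold change -0.18 ± 0.24, adjusted p = 0.609).

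Igfbp4, a binding protein for insulin-like growth factors (chr11:99041244-99054392 on the plus strand in GRCm38), had 111, 158 and 205 CPM in Lgr5-positive wells, against 13.0, 20.2 and 66.1 CPM in Lgr5-zero wells. The groups did not overlap (log2 fold change 2.52 ± 0.17, adjusted p = 7.94e-08). Gkn3, a secreted gastrokine (chr6:87383256-87388935 on the minus strand), had 55.4, 74.1 and 91.0 CPM in Lgr5-positive wells, against 3.24, 10.0 and 46.4 CPM in Lgr5-zero wells. Again no library of Lgr5-positive wells reached down into the Lgr5-zero range (log2 fold change 2.36 ± 0.28, adjusted p = 1.14e-05). Slc12a2, the basolateral sodium-potassium-chloride cotransporter, was far more abundant, with 1591, 1797 and 2207 CPM in Lgr5-positive wells, against 375, 445 and 668 CPM in Lgr5-zero wells. Its difference had the smallest standard error of the 4 (log2 fold change 1.96 ± 0.07, adjusted p = 2.89e-10). Clca4, of the calcium-activated chloride channel regulator family, had 1671, 3578 and 4856 CPM in Lgr5-positive wells, against 818, 1199.6 and 1916 CPM in Lgr5-zero wells. The ranges overlapped, yet Clca4 was higher within all 7 libraries (log2 fold change 1.46 ± 0.12, adjusted p = 4.99e-07).

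Other genes of the list moved the same way. Ascl2, the transcription factor that maintains the Lgr5 state, had 131, 192 and 273 CPM in Lgr5-positive wells, against 26.4, 40.1 and 46.3 CPM in Lgr5-zero wells (2.13 ± 0.15 on the log2 scale). Smoc2, a secreted matricellular protein, had 416, 449 and 494 CPM in Lgr5-positive wells, against 112, 119.9 and 168 CPM in Lgr5-zero wells (1.79 ± 0.09). Both sets of ranges were separate. Sox9 (1.65 ± 0.11), the transcription factor of the crypt base, Lrig1 (1.65 ± 0.13), an inhibitor of EGF receptors, Cdca7 (1.78 ± 0.09), Soat1 (2.20 ± 0.21), Slc14a1 (2.15 ± 0.21) and Aqp4 (1.505 ± 0.14), a water channel, were higher too. The smallest called differences were for Prom1 (1.02 ± 0.14) and Hopx (0.90 ± 0.08), which are also expressed above the crypt base. Olfm4, widely used as a marker of these cells, was rare in these libraries and did not pass the filter, with 6.92, 19.2 and 45.4 CPM in Lgr5-positive wells, against 0, 3.24 and 6.38 CPM in Lgr5-zero wells.

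**Figure D1:**
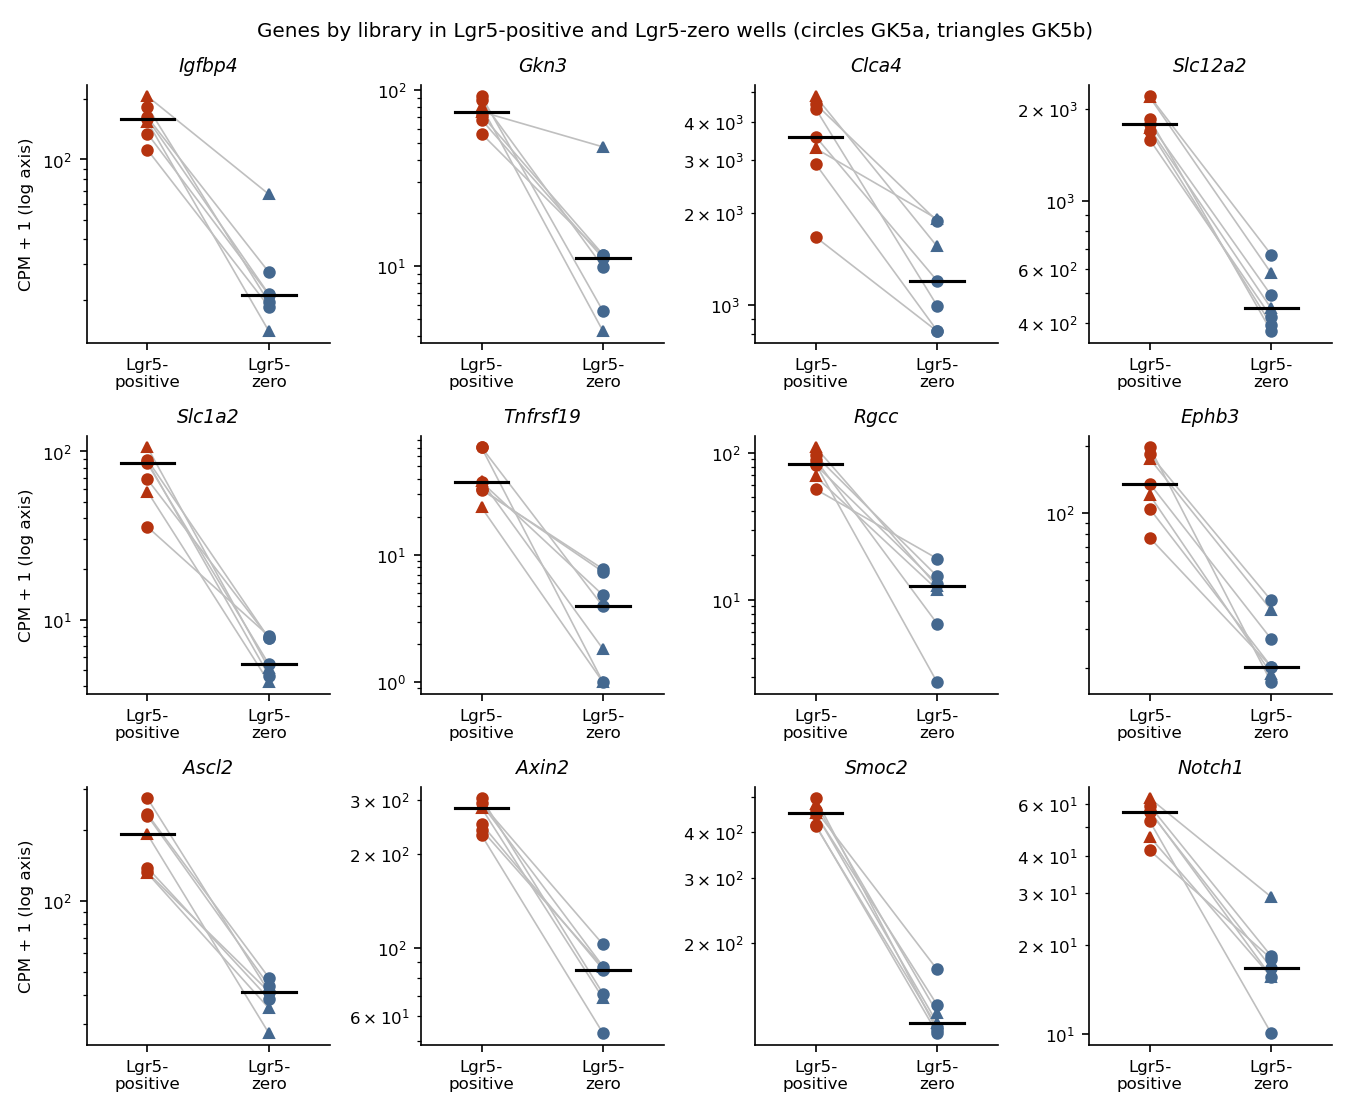
CPM + 1 of 12 genes in the Lgr5-positive wells (left) and Lgr5-zero wells (right) of each sorted library, on a log axis. A line joins the sums of 1 library, circles are GK5a and triangles GK5b. Every line falls towards the Lgr5-zero side, and only Clca4 has ranges that overlap.

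The genes with the largest increases mixed known stem cell markers with transport, signalling and structural genes. Slc1a2, a glutamate transporter best known from astrocytes (chr2:102658659-102790784 on the plus strand), led with 34.6, 84.0 and 105 CPM in Lgr5-positive wells, against 3.24, 4.42 and 6.99 CPM in Lgr5-zero wells. The groups were separate in every library (log2 fold change 2.92 ± 0.24, adjusted p = 4.2e-07, and 2.87 without wells of other lineages). Tnfrsf19, also called Troy, a receptor of the TNF receptor family and a Wnt target in crypts, had 22.7, 36.6 and 69.5 CPM in Lgr5-positive wells, against 0, 2.94 and 6.77 CPM in Lgr5-zero wells. Its groups did not overlap (log2 fold change 2.58 ± 0.33, adjusted p = 2.48e-05). Rgcc, a regulator of the cell cycle, had 55.4, 83.1 and 108 CPM in Lgr5-positive wells, against 1.75, 11.3 and 18.1 CPM in Lgr5-zero wells (log2 fold change 2.57 ± 0.24, adjusted p = 1.12e-06). Sfrp5, a secreted Frizzled-related protein that binds Wnts, had 40.8, 68.9 and 102 CPM in Lgr5-positive wells, against 1.62, 7.69 and 35.5 CPM in Lgr5-zero wells (log2 fold change 2.35 ± 0.33, adjusted p = 5.79e-05). Igfbp4, Gkn3, Ephb3, the adaptor Sorbs2 (2.31 ± 0.21), the disulfide isomerase family gene Agr3 (2.25 ± 0.25), the beta-tubulin Tubb2b (2.22 ± 0.20) and Iffo2 (2.22 ± 0.20) were also among the largest. The genes named here were each higher in 7 of 7 libraries without overlap of the groups and were called without wells of other lineages as well.

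Single wells showed the same genes at low capture. To compare shares at 1 depth, wells were thinned to 2000 transcripts, which left 204 Lgr5-positive and 576 Lgr5-zero wells and dropped 7 and 102. Slc12a2 was then seen in 94.1% of Lgr5-positive wells, against 44.3% of Lgr5-zero wells, 60.1% of 158 goblet-rich wells and 10.3% of 39 enterocyte-rich wells. Smoc2 was seen in 59.8% of Lgr5-positive wells, against 21.5% of Lgr5-zero, 9.49% of goblet-rich and 2.56% of enterocyte-rich wells. Igfbp4 was seen in 27.9% of Lgr5-positive wells, against 4.69% of Lgr5-zero and 3.80% of goblet-rich wells. Gkn3 was seen in 14.7%, against 2.43% of Lgr5-zero and 0.633% of goblet-rich wells. Ascl2 was seen in 27.5% of Lgr5-positive and 7.47% of Lgr5-zero wells, and in 0 of the goblet-rich and 0 of the enterocyte-rich wells. Summed over the stem list with Lgr5 left out, a thinned Lgr5-positive well held a median of 22 transcripts (10th to 90th percentile 12 to 33.7), against 5 in Lgr5-zero wells and 7 in Lgr5-zero wells without other lineages. Only 3 Lgr5-positive wells held 0 of them, against 76 Lgr5-zero wells.

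Most tested Wnt targets were higher in Lgr5-positive wells, while most tested receptors and relay components were not called. Of 22 Wnt targets and feedback genes, 14 were tested, 11 were higher and 1 lower, with a median of 1.56. Axin2, the feedback scaffold of beta-catenin destruction, had 229.5, 281 and 302 CPM in Lgr5-positive wells, against 51.9, 83.9 and 101 CPM in Lgr5-zero wells. The ranges lay apart (log2 fold change 1.74 ± 0.11, adjusted p = 4.1e-08). Sp5, a transcription factor that Wnt induces directly, had 28.4, 55.4 and 79.1 CPM in Lgr5-positive wells, against 3.24, 9.07 and 19.2 CPM in Lgr5-zero wells (log2 fold change 2.02 ± 0.21, adjusted p = 3.96e-06). The ubiquitin ligases Rnf43 (1.47 ± 0.19) and Znrf3 (1.03 ± 0.23), which remove Frizzled receptors, and the adhesion receptor Cd44 (1.71 ± 0.12) were higher too. Cyclin D1, Ccnd1, was the 1 lower gene (log2 fold change -0.71 ± 0.12, adjusted p = 0.000227). Myc (0.61 ± 0.14) and Ephb2 (0.45 ± 0.14) were called in all wells but not without wells of other lineages (0.19 and 0.17). There 9 targets were higher, and Ccnd2 was lower besides Ccnd1 (-0.60). The list shares 7 of its tested genes with the stem list, all of them higher in both comparisons. The rest were split once wells of other lineages were left out. Znrf3 and Cd44 were higher there, Ccnd1 and Ccnd2 lower, and Myc, Ephb2 and Lgr4 were not called.

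Because Wnt targets moved together, their promoters were searched for the TCF/LEF core, written as CTTTGAA or CTTTGAT or CTTTGTA or CTTTGTT, on either strand. The window ran from 250 bases before to 50 after the start, in RefSeq sequences of GRCm38.p6. Sp5 (chr2:70474673-70474972, plus strand) held 2 matches and Tnfrsf19 (chr14:61037938-61038237, minus strand, 1 of 2 listed starts) held 1. They are printed as the Wnt targets called higher in which the motif stood in this window, 5′ to 3′ on the gene's strand with each match in capitals, and AACAAAG and ATCAAAG are matches on the opposite strand.
Sp5: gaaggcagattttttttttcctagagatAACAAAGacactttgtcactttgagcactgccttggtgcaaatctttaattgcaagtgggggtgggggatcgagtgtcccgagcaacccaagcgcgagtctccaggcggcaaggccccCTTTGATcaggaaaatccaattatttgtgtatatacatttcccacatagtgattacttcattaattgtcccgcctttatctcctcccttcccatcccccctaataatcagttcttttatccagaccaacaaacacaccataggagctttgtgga
Tnfrsf19: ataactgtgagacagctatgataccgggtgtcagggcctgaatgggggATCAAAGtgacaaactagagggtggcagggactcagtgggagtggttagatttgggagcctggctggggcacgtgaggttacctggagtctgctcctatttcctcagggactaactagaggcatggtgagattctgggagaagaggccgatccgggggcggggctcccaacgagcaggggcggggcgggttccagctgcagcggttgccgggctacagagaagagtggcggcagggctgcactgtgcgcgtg
Matches were common everywhere. A match stood in the window of 5121 of 27025 genes with a promoter in the table (18.9%), of 757 of 5431 tested genes (13.9%) and of 103 of 614 genes higher in Lgr5-positive wells (16.8%). It stood in the window of 2 of 8 Wnt targets that were higher and of 3 of 16 stem genes that were higher. Each of these totals counts only genes with a promoter in the table, and the other genes were not searched.

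The receiving side of the Wnt pathway held few calls. Of 23 receptors and relay genes, 11 were tested, 1 was higher and 1 lower, with a median of -0.09. Over all genes 11.9% were higher and 23.6% lower, so the higher share was near this background. The higher one was the receptor Fzd7 (log2 fold change 1.25 ± 0.29, adjusted p = 0.00333) and the lower one was Fzd5 (log2 fold change -1.28 ± 0.13, adjusted p = 2.8e-06), with Fzd7 at 11.3, 35.6 and 55.4 CPM in Lgr5-positive wells, against 5.15, 10.2 and 21.0 CPM in Lgr5-zero wells. The Fzd7 ranges overlapped, with Lgr5-positive wells higher in 6 of 7 libraries. Both were called in the same direction without wells of other lineages (1.14 for Fzd7 and -1.22 for Fzd5). The receptor Fzd2 passed the filter only there and was also higher (1.62, adjusted p = 0.000125). That made 2 higher and 1 lower of 12 tested, beside 7.63% and 14.6% of all genes. Lgr4, the paralogue of Lgr5, was not called (log2 fold change 0.07 ± 0.10, adjusted p = 0.667), nor was beta-catenin, Ctnnb1 (log2 fold change 0.14 ± 0.07, adjusted p = 0.157).

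Notch signalling keeps crypt base cells from turning secretory. Of 18 Notch genes, 8 were tested, 3 were higher and 2 lower, beside 11.9% and 23.6% of all genes. The lower share was near this background. The receptor Notch1 had 40.8, 55.4 and 61.7 CPM in Lgr5-positive wells, against 9.02, 15.7 and 28.0 CPM in Lgr5-zero wells. It was higher without overlap (log2 fold change 1.45 ± 0.18, adjusted p = 1.88e-05). Hes1, the repressor that Notch induces, had 249, 327 and 398 CPM in Lgr5-positive wells, against 79.4, 172 and 195 CPM in Lgr5-zero wells (log2 fold change 1.00 ± 0.17, adjusted p = 0.00027). Notch2 was also higher (0.70 ± 0.23), though not without wells of other lineages (0.47). Nrarp, a feedback target (-0.48 ± 0.17), and Adam10, the protease that cleaves Notch (-0.42 ± 0.13), were lower. Neither was called with library totals, but both were called lower without wells of other lineages (-0.75 for Nrarp and -0.54 for Adam10).

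BMP signals oppose the stem state and act more strongly higher in the crypt and on the villus. Of 17 BMP and TGF-beta genes, 12 were tested, 2 were higher and 2 lower, beside 11.9% and 23.6% of all genes, shares near this background. The BMP target Id3 had 47.8, 75.2 and 166 CPM in Lgr5-positive wells, against 109.8, 186 and 266 CPM in Lgr5-zero wells. It was lower in 7 of 7 libraries, though the ranges overlapped (log2 fold change -1.11 ± 0.14, adjusted p = 2.73e-05), and Id1 was lower too (log2 fold change -0.58 ± 0.17, adjusted p = 0.0134). Id1 was not called without wells of other lineages (-0.40), which left 2 higher and 1 lower. Rgmb, a BMP co-receptor, was higher (log2 fold change 1.74 ± 0.17, adjusted p = 2.48e-06), as was the signal transducer Smad5 (log2 fold change 0.66 ± 0.16, adjusted p = 0.00396). Of 14 EGF receptor and feedback genes 4 were tested and the 1 called, higher, was Lrig1. Egfr itself was at a log2 fold change of 0.16 ± 0.21 (adjusted p = 0.581).

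Eph receptors and their ephrin ligands, which position cells along the crypt, differed in both directions. Of 13 genes 8 were tested, 4 were higher and 3 lower, beside 11.9% and 23.6% of all genes. The receptor Ephb3 (chr16:21204755-21223305 on the plus strand) had 76.2, 135 and 197 CPM in Lgr5-positive wells, against 16.2, 19.2 and 39.2 CPM in Lgr5-zero wells. The groups were separate (log2 fold change 2.29 ± 0.16, adjusted p = 1.21e-07). The receptors Ephb4 (0.68 ± 0.13) and Ephb2 (0.45 ± 0.14) and the ligand Efna4 (1.42 ± 0.19) were higher. The ligand Efnb2 had 0, 6.45 and 20.8 CPM in Lgr5-positive wells, against 28.9, 34.6 and 57.5 CPM in Lgr5-zero wells and was lower (log2 fold change -1.91 ± 0.27, adjusted p = 6.71e-05), as were Efnb1 (-0.70 ± 0.17) and the receptor Epha1 (-1.15 ± 0.26). Epha1 was not called with library totals, and neither Efnb2 nor Epha1 passed the filter once wells of other lineages were left out. Of the 6 genes tested there, 4 were higher and 1 lower, beside 7.63% and 14.6% of all genes. Ephb2 was not called there (0.17), and the ligand Efna1 was higher (0.76, adjusted p = 0.00959).

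**Figure D2:**
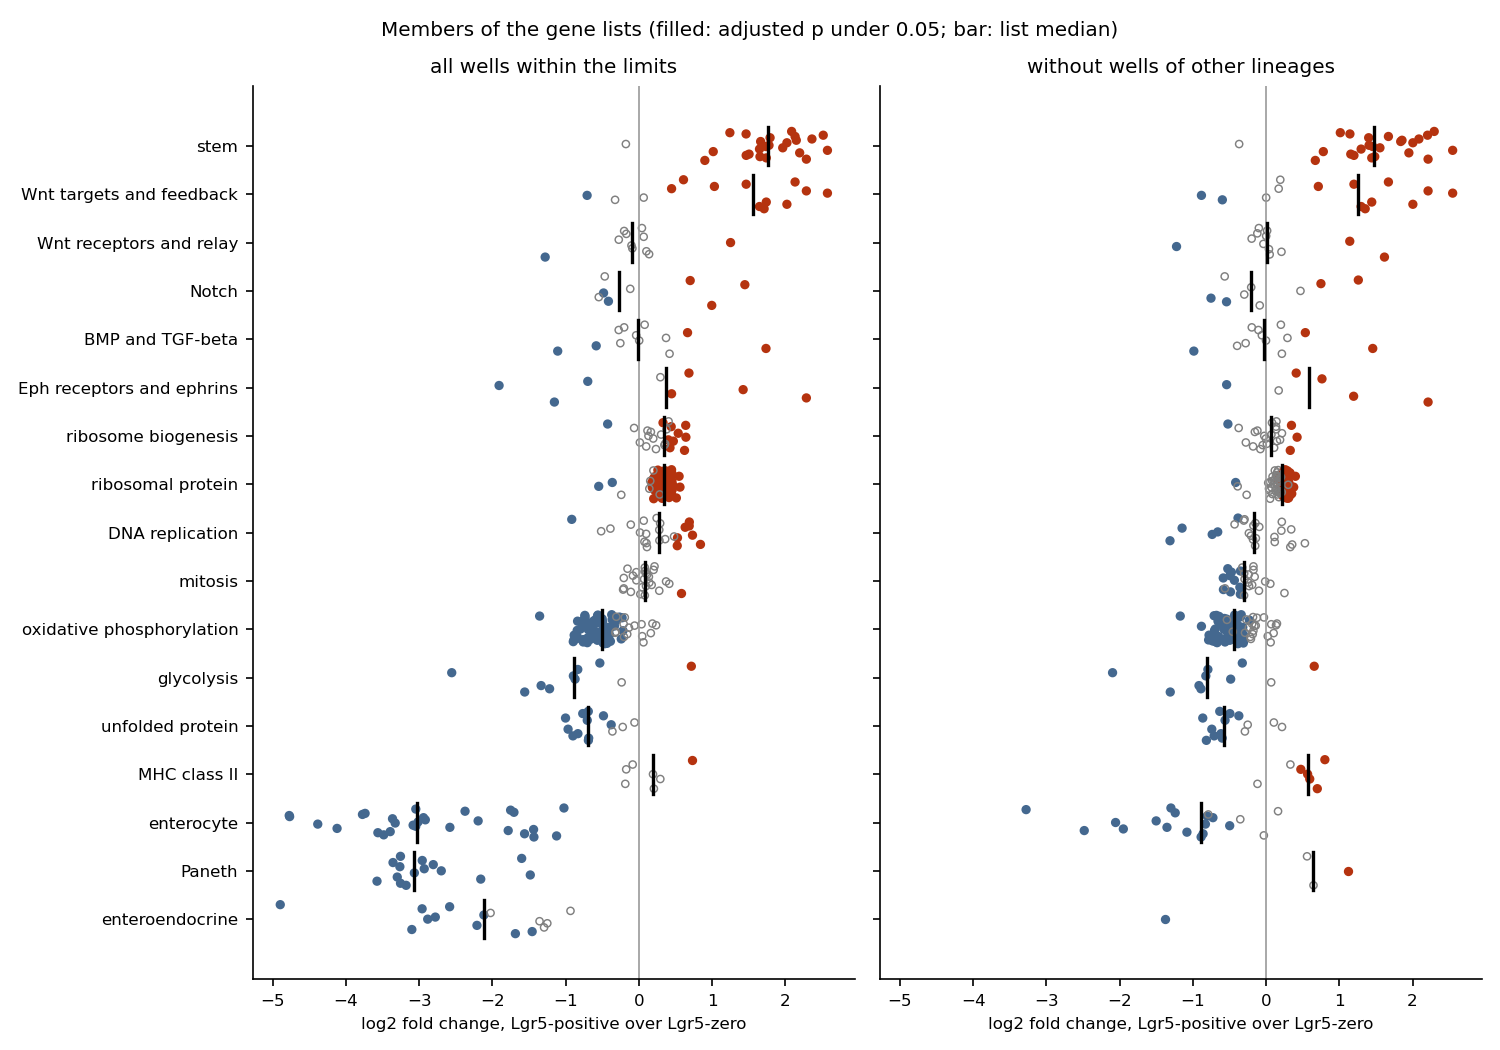
Log2 fold change, Lgr5-positive over Lgr5-zero wells, of each tested member of the gene lists, for all wells and for wells without other lineages; filled points have an adjusted p under 0.05 and bars are list medians. Most stem genes and Wnt targets lie to the higher side in both panels. Most oxidative phosphorylation and glycolysis genes lie to the lower side, and mitosis genes around 0 in all wells.

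Ribosomal protein transcripts took a larger share of Lgr5-positive wells. They made up 15.7%, 17.7% and 18.3% of transcripts (lowest, median and highest library), against 12.03%, 12.3% and 13.9% in Lgr5-zero wells. The ranges did not meet, and Lgr5-zero wells without other lineages lay between, at 14.1%, 15.1% and 15.6%. Of 82 ribosomal protein genes 76 were tested, 69 were higher and 2 lower, with a median of 0.34. Rpl36a (0.56 ± 0.06), Rps19 (0.55 ± 0.05) and Rpl12 (0.51 ± 0.04) were among them, and Rps27l, a p53-responsive paralogue, was lower (-0.36 ± 0.08). Without wells of other lineages 42 were higher and 1 lower, with a median of 0.21. Without the library block 45 were higher. With wells thinned to 2000 transcripts 10 were higher under TMM and 61 under library totals. The median over all genes was then -0.37 under TMM and -0.18 under library totals. After thinning without wells of other lineages limma called 0 of 76, with 6 higher and 1 lower at an unadjusted p under 0.05. Of 23 ribosome biogenesis genes 9 were higher and 1 lower, among them the nucleolar proteins Npm1 (log2 fold change 0.64 ± 0.06, adjusted p = 1.05e-06) and Ncl (log2 fold change 0.62 ± 0.06, adjusted p = 1.68e-06). The count fell to 3 higher genes without wells of other lineages, Npm1, Ncl and Polr1c, a subunit of RNA polymerases I and III (0.35, 0.33 and 0.42).

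Oxidative phosphorylation genes were lower in Lgr5-positive wells. Of 90 oxidative phosphorylation genes, a list taken by name pattern that includes assembly factors, 86 were tested, 71 were lower and 0 higher, with a median of -0.51. Without wells of other lineages 65 were lower and 0 higher, and with library totals 64 were lower and 2 higher. After thinning to 2000 transcripts 39 were lower, where the median over all genes was -0.37. Their summed share was 3.31%, 3.55% and 4.04% in Lgr5-positive wells, against 4.46%, 4.84% and 5.04% in Lgr5-zero wells. Lgr5-zero wells without other lineages stood at 4.39%, 4.89% and 4.92%, so the ranges lay apart in both comparisons. Cycs, cytochrome c, had 417, 526 and 578 CPM in Lgr5-positive wells, against 1041, 1429 and 1722 CPM in Lgr5-zero wells (log2 fold change -1.36 ± 0.07, adjusted p = 7.74e-09).

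Glycolysis followed. Of 15 genes 10 were tested, 8 were lower and 1 higher, with a median of -0.88, and the same counts held without wells of other lineages. Ldha, the lactate dehydrogenase subunit that favours lactate production, had 319, 586 and 679.8 CPM in Lgr5-positive wells, against 1364, 1725 and 1824 CPM in Lgr5-zero wells. No library overlapped (log2 fold change -1.56 ± 0.09, adjusted p = 2.19e-08). Pfkp, the platelet form of phosphofructokinase, fell further (log2 fold change -2.56 ± 0.18, adjusted p = 1.02e-07), and Pkm, pyruvate kinase, also fell (log2 fold change -1.34 ± 0.08, adjusted p = 2.32e-08). The higher gene was Hk2, a hexokinase (log2 fold change 0.72 ± 0.13, adjusted p = 0.000463). Of genes of fatty acid use, 3 were picked after their values were seen and the list is not counted here: the acyl-CoA thioesterase Acot1 was higher (log2 fold change 1.55 ± 0.17, adjusted p = 7.56e-06). Ppara, a nuclear receptor that induces fatty acid oxidation genes, was lower (log2 fold change -1.34 ± 0.20, adjusted p = 0.000126), as was Cpt1a (-0.58 ± 0.12), which admits fatty acids to mitochondria. Acot1, Ppara and Cpt1a were called in the same direction without wells of other lineages.

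Genes of the unfolded protein response and protein folding in the endoplasmic reticulum were lower as well. Of 16 genes 14 were tested, 11 were lower and 0 higher, with a median of -0.69, and 10 were lower without wells of other lineages. Their share was 0.235%, 0.259% and 0.278% in Lgr5-positive wells, against 0.363%, 0.382% and 0.435% in Lgr5-zero wells. The chaperone Hspa5 (BiP) was lower (log2 fold change -0.90 ± 0.08, adjusted p = 8.79e-07), as were Xbp1, the transcription factor of secretory cells (log2 fold change -0.97 ± 0.10, adjusted p = 4.97e-06), and Manf (-1.002 ± 0.12, adjusted p = 9.68e-06). The limits on Atoh1 and on goblet genes applied to both groups.

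**Figure D3:**
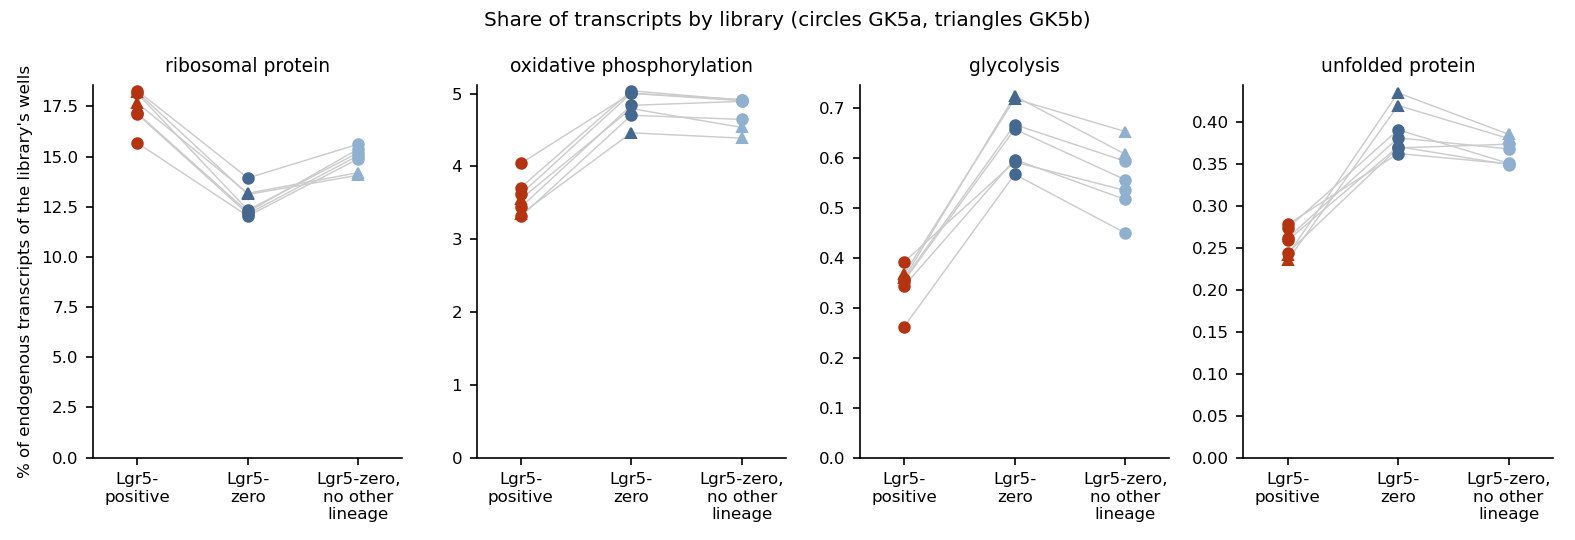
Percent of transcripts from 4 gene lists in each sorted library, in Lgr5-positive wells, Lgr5-zero wells and Lgr5-zero wells without other lineages; circles are GK5a and triangles GK5b. Ribosomal protein shares of 15.7% to 18.3% lie above both Lgr5-zero groups, and the shares of oxidative phosphorylation, glycolysis and unfolded protein response genes lie below them.

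The number of cycling transcripts depended on which wells the members were set against. Of 26 DNA replication genes 23 were tested and 7 were higher and 1 lower in Lgr5-positive wells, with a median of 0.28. The higher ones included the helicase subunits Mcm3 (log2 fold change 0.69 ± 0.16, adjusted p = 0.00294) and Mcm6 (log2 fold change 0.52 ± 0.12, adjusted p = 0.00411), and the lower one was Rrm2, a ribonucleotide reductase subunit (log2 fold change -0.92 ± 0.22, adjusted p = 0.00511). Set against wells without other lineages, 0 were higher and 5 lower, with a median of -0.16. Over all genes, 11.9% were higher and 23.6% lower in all wells, and 7.63% and 14.6% without wells of other lineages. After thinning of all wells to 2000 transcripts limma called 0 of 22, with 1 higher and 3 lower at an unadjusted p under 0.05. Of 26 mitosis genes, all tested, 1 was higher (Cenpf, log2 fold change 0.57 ± 0.20, adjusted p = 0.0352) and 0 lower, with a median of 0.08. Set against Lgr5-zero wells without other lineages, 0 were higher and 10 lower, with a median of -0.30, beside -0.07 over all genes. There too limma called 0 of 26 after thinning, with 5 lower at an unadjusted p under 0.05. After thinning the median over all genes was itself -0.37 for all wells and -0.30 without wells of other lineages. The proliferation marker Mki67 had a log2 fold change of -0.03 ± 0.13 in all wells (adjusted p = 0.866) and of -0.43 without wells of other lineages (adjusted p = 0.00322).

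Well by well, mitosis transcripts were spread unevenly in each group. In wells thinned to 2000 transcripts, a Lgr5-positive well held a median of 2 mitosis transcripts with a 75th percentile of 10.25, a 90th of 21 and a highest value of 33, and 28.9% held 0. Lgr5-zero wells also had a median of 2, with 7.25, 18 and 36 for the same measures, and 31.1% held 0. Lgr5-zero wells without other lineages had a median of 4, with 12.75, 21 and 36, and 17.1% held 0. For DNA replication the medians were 4 in Lgr5-positive wells, 2 in Lgr5-zero wells and 5 in Lgr5-zero wells without other lineages. By contrast the medians for ribosomal proteins were 362.5, 272 and 299, and for oxidative phosphorylation 67.5, 95 and 95, in the same order of groups.

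**Figure D4:**
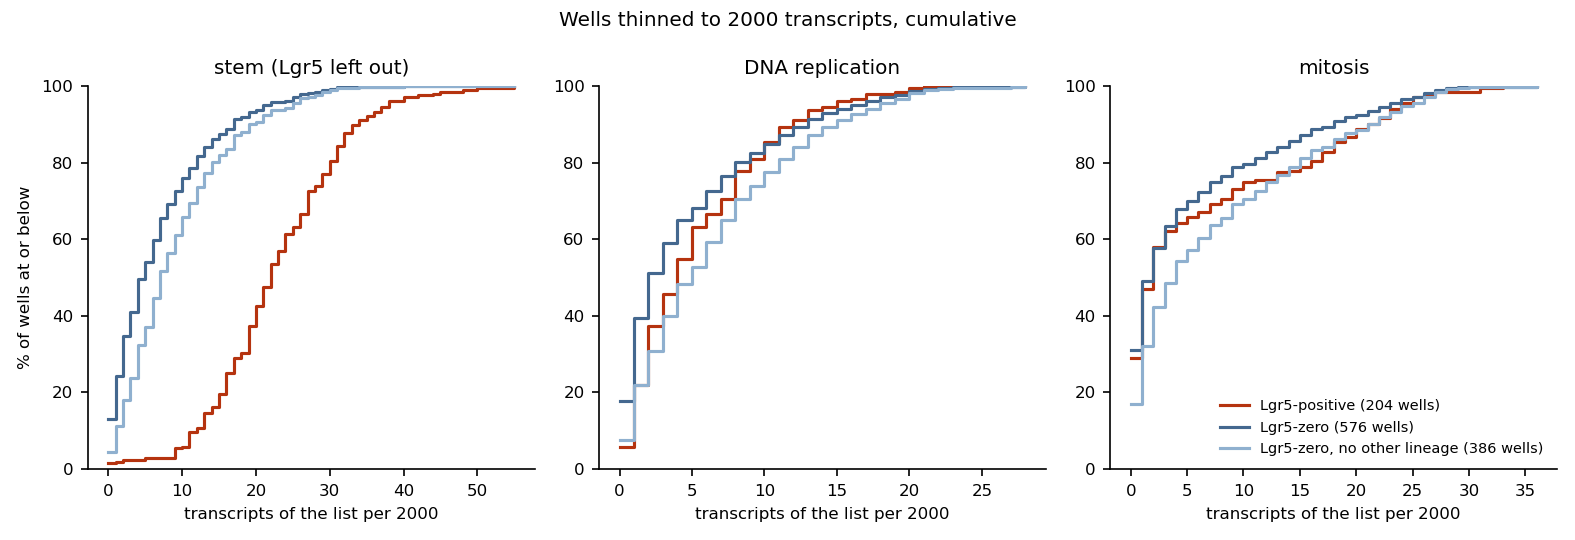
Cumulative percent of wells holding up to a given number of transcripts of a gene list, after thinning each well to 2000 transcripts, for Lgr5-positive wells, Lgr5-zero wells and Lgr5-zero wells without other lineages. The stem list (Lgr5 left out) separates the groups, with medians of 22, 5 and 7, while the mitosis curves start at 28.9%, 31.1% and 17.1% of wells with 0.

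Enterocyte markers were lower in Lgr5-positive wells. Of 29 enterocyte genes 28 were tested and 28 were lower, with a median of -3.03. Without the wells richest in them 15 of 19 were lower, though the removal itself is by these genes. Sis, the brush border sucrase-isomaltase, had 0, 34.6 and 182 CPM in Lgr5-positive wells, against 632, 1286 and 1754 CPM in Lgr5-zero wells (log2 fold change -4.77 ± 0.36, adjusted p = 1.66e-07). Fabp1, the liver-type fatty acid binding protein (log2 fold change -4.39 ± 0.17, adjusted p = 2.89e-10), Alpi, intestinal alkaline phosphatase (log2 fold change -4.12 ± 0.29, adjusted p = 1.04e-07), and the apolipoproteins Apoa1 (log2 fold change -4.78 ± 0.55, adjusted p = 1.02e-05) and Apoa4 (log2 fold change -3.74 ± 0.34, adjusted p = 9.58e-07) were lower. Fabp2 was still seen in 40.7% of thinned Lgr5-positive wells, against 65.5% of Lgr5-zero wells. Of genes outside the list, Apol10a, an apolipoprotein L (-4.12 ± 0.50), Spink3, a trypsin inhibitor (-4.09 ± 0.35), St3gal4, a sialyltransferase (-3.76 ± 0.33), and Enpep, a brush border aminopeptidase (-3.71 ± 0.37), were among the 12 largest decreases and were called without wells of other lineages too. The lectins Reg1 (-3.78 ± 0.33) and Reg3a (-3.73 ± 0.42) completed the group with Chgb.

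Over all wells, most tested Paneth, enteroendocrine and goblet markers were lower, while no tuft gene was called. Of 19 Paneth genes 15 were tested and 15 were lower, with a median of -3.07, and reads of the near-identical alpha-defensins may be split among them. With the wells of other lineages left out, 28 Paneth wells among them and all 28 from the Lgr5-zero group, 3 genes were tested, 0 were lower and 1 higher, with a median of 0.65. The higher one was Pla2g2a, a secreted phospholipase (1.12, adjusted p = 0.000612, against -1.60 ± 0.56 in all wells). The removal itself is by genes of this list, Pla2g2a among them, and took Paneth wells from the Lgr5-zero group alone. This rise therefore cannot be told apart from the selection. Lyz1, lysozyme, was seen in 25% of thinned Lgr5-positive wells and 18.8% of Lgr5-zero wells, against 47.5% of goblet-rich and 28.2% of enterocyte-rich wells. The exact 95% intervals of the members (19.2% to 31.5%) and of the enterocyte-rich wells (15.0% to 44.9%) overlapped. Of 24 enteroendocrine genes 15 were tested and 10 were lower, in a comparison with 1 enteroendocrine well among the Lgr5-positive and 38 among the Lgr5-zero wells. With such wells left out 1 gene was tested, Neurog3, a transcription factor of early endocrine cells, and it was lower (-1.37, adjusted p = 0.0388). That removal, too, is by a list that holds the tested gene. Chgb, chromogranin B, fell most (log2 fold change -4.90 ± 0.44, adjusted p = 1.01e-06), with 0, 11.9 and 69.3 CPM in Lgr5-positive wells, against 165, 573 and 1611 CPM in Lgr5-zero wells. The groups did not overlap. However, 14.2% of Lgr5-positive wells and 13.3% of Lgr5-zero wells held any Chgb (3.92% and 5.21% after thinning), and without wells of other lineages Chgb did not pass the filter. Of 15 goblet genes that the rule does not use 6 were tested, 4 were lower and 1 higher, the mucin-type glycosyltransferase Galnt12 (log2 fold change 0.90 ± 0.21, adjusted p = 0.00329). With wells of other lineages left out 5 were tested, 0 were lower and Galnt12 was again the 1 higher. Of 12 tuft genes 6 were tested and 0 were called, with a median of 0.92 and 3 higher at an unadjusted p under 0.05. With precision weights 6 were called higher, and with library totals 1. The 2 member wells with at least 2% tuft transcripts stand beside 0 such Lgr5-zero wells, and without wells of other lineages the median was 0.22. Both tested immune genes, Gzma and Ccl5, were lower, and no stromal or erythroid gene passed the filter.

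MHC class II genes, which present antigen and are known in a part of the crypt base cells, were seldom called in all wells. Of 8 genes 7 were tested and 1 was higher, near the 11.9% of all genes. It was the transactivator Ciita (log2 fold change 0.73 ± 0.23, adjusted p = 0.0227). Set against wells without other lineages, 5 were higher, with a median of 0.57, among them H2-Ab1 (0.70 ± 0.16, adjusted p = 0.00363) and Cd74 (0.57 ± 0.12, adjusted p = 0.00129). By code, all wells gave 0 higher and 1 lower in GK5a libraries alone and 4 higher and 0 lower in GK5b libraries alone. Their share was 0.139%, 0.247% and 0.367% in Lgr5-positive wells, against 0.105%, 0.239% and 0.339% in Lgr5-zero wells. Of 15 immediate-early genes 10 were tested, 1 was higher and 3 lower, near the 11.9% and 23.6% of all genes. The higher one was Jun (log2 fold change 1.17 ± 0.17, adjusted p = 0.000102). With wells of other lineages left out 2 were higher, Jun and Btg2 (0.72, adjusted p = 0.019), and 0 lower. Fos was not called (log2 fold change -0.48 ± 0.38, adjusted p = 0.362). Of 11 heat shock genes 9 were tested, and Hsp90ab1 was higher (log2 fold change 0.59 ± 0.05, adjusted p = 4.64e-07) and Dnaja1 lower (log2 fold change -0.35 ± 0.09, adjusted p = 0.00808), beside 11.9% of all genes higher and 23.6% lower. With wells of other lineages left out, Hspd1 (-0.37) and Hspe1 (-0.22) were lower and Dnaja1 was not called (-0.19). Of 4 tested RNA quality genes, the ribosomal precursor Rn45s (log2 fold change -0.38 ± 0.13, adjusted p = 0.0338) and Neat1 (log2 fold change -0.50 ± 0.13, adjusted p = 0.0061) were lower. Neither was called without wells of other lineages, and their part in the other results was not tested.

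The values were graded by the number of Lgr5 transcripts in a well. Replicates 2, 3, 4, 5 and 7 held at least 3 wells without other lineages in every class, and replicates 1 and 6, which did not, were left out. In those 5 libraries, wells with 0, 1, 2, 3 to 4 and 5 or more Lgr5 transcripts numbered 548, 83, 54, 53 and 75. These counts and the values below include wells of other lineages. In that order the stem list without Lgr5 took 0.309%, 0.685%, 0.847%, 1.15% and 1.22% of transcripts. For this list, wells just outside the threshold, with 1 Lgr5 transcript, stood nearer to the wells just inside it than to the Lgr5-zero wells. Ephb3 had 26.0, 80.7, 81.1, 120 and 272 CPM. Igfbp4 had 29.4, 92.0, 111, 187 and 210 CPM. Gkn3 had 15.8, 22.2, 43.8, 66.7 and 137 CPM, so there the wells with 1 Lgr5 transcript stood nearer to the Lgr5-zero wells. Ldha had 1629, 1187, 772, 535 and 556 CPM, and Efnb2 had 35.7, 17.5, 16.9, 4.96 and 2.28 CPM. Ribosomal proteins took 12.8%, 16.1%, 16.6%, 19.3% and 18.0% and oxidative phosphorylation 4.87%, 4.41%, 3.95%, 3.63% and 3.37%. Mitosis genes stood at 0.319%, 0.314%, 0.334%, 0.289% and 0.310%, with no order. The median depths were 7648, 5663, 7278, 7099 and 13948 transcripts. The classes are cut by Lgr5 itself and by depth with it, and no test was made. Over all 7 libraries, wells of other lineages were 241 Lgr5-zero wells, 12 wells with 1 Lgr5 transcript and 8 members. Lgr5-zero wells without them had median shares of 0.432% for the stem list without Lgr5 and 15.1% for ribosomal proteins. For oxidative phosphorylation the median was 4.89% and for mitosis 0.470%. The part of these wells in the step from 0 to 1 Lgr5 transcript was not tested.

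**Figure D5:**
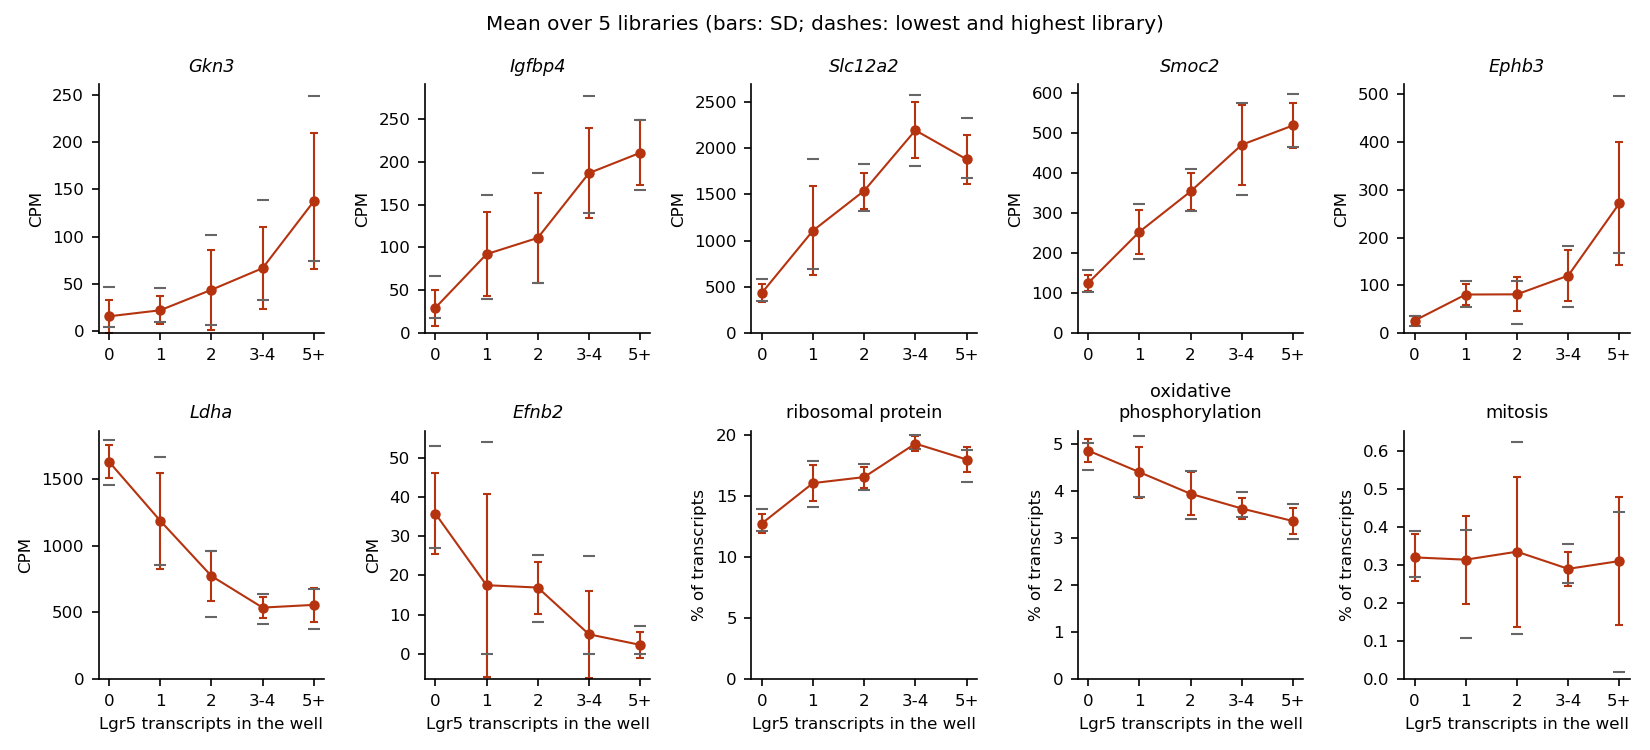
Mean level over 5 libraries of 7 genes (CPM) and 3 gene lists (percent of transcripts) in wells with 0, 1, 2, 3 to 4 and 5 or more Lgr5 transcripts; bars are the SD and dashes the lowest and highest library. Wells of other lineages are included. Gkn3, Igfbp4, Smoc2 and Ephb3 climb with the Lgr5 count, and Slc12a2 climbs up to the class of 3 to 4. Efnb2 and oxidative phosphorylation decline at each step, and mitosis stays between 0.289% and 0.334%.

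No difference was detectable in how many genes a well expressed. At 2000 transcripts per well, 1223 ± 10 genes were seen in Lgr5-positive wells and 1224 ± 23.3 in Lgr5-zero wells (mean of library medians ± SD, n = 7 libraries). The difference was -0.929 genes, higher in 3 of 7 libraries (exact 2-sided sign-flip permutation test, p = 0.875, where 0.0156 is the smallest possible). Between the codes, the Lgr5 contrast differed for 1 of 7140 genes by limma's test of the interaction, with 500 genes at an unadjusted p under 0.05. That gene was Cyp4v3, a fatty acid hydroxylase, with a log2 fold change of 0.48 in GK5b libraries and -1.42 in GK5a libraries (difference 1.90 ± 0.26, adjusted p = 0.0189). Without wells of other lineages Cyp4v3 was not called and the 1 gene called was Malat1, from the RNA quality list, with -0.48 in GK5b libraries and 0.82 in GK5a libraries (difference -1.30 ± 0.20, adjusted p = 0.0303). GK5b holds 2 libraries with different title endings, 1 of them with 6 member wells. What size of difference could be detected was not tested.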

How the data were processed

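The members and the gene lists were chosen with earlier results of these data known. The authors deposited 1 table per library of transcripts per gene and well, aligned with BWA 0.6.2-r126 to mm10 per the submitters' processing notes; for the counting software, strand setting and filters the sources used here give no name. What the authors deposited are not whole counts but other values: minus 4096 times ln(1 - n/4096) for whole barcode counts n, with a largest deviation of 0.000977, so no count model was used.

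Wells were selected by the rule in the report, and their values were summed per group and library, which pairs the 2 sums of 1 plate. The planned test was kept: TMM scaling (computed by a script of its own), log2(CPM + 5), genes with a mean of at least 20 CPM over the 14 sums, and limma 3.58.1 (R 4.3.3) with trend and library block, Benjamini-Hochberg adjusted over all genes. The 8 genes of the rule were left out of the calls. Named genes were the 12 largest changes in each direction that were called and of the same sign in all 7 libraries, and for each list the called members with the largest change and the main markers. Further list members were named after their values were seen. Intervals are exact binomial and cover counting error only. Well names 1 to 384 are plate positions, shared by all libraries, and not shared cells. The 21 pairs of libraries differed by more than sampling noise (chi-square per gene 3.72 to 16.7 over 5366 genes). No doublet caller was run. In simulated sums of 7140 genes for this comparison, 84% of 100 genes with a 2-fold change were found, 100% of 100 with a 4-fold change, and 2 of 6940 without a change. The simulation gave every gene the same spread, taken from abundant genes, and as many rises as falls. How these shares change for rarer genes with a larger spread was not tested. Gene positions are from GENCODE vM21 (GRCm38), promoters from RefSeq (GRCm38.p6). Some genes and the counts that rest on them are not reported here.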

Additional observations from a re-analysis of the deposited data

Results flagged for a closer look

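The share of used wells that met the rule was 2.27% in replicate 6, far from the 12.1% to 18.7% of the other 6 sorted libraries. Only 34 of its 264 used wells met the limits on Atoh1 and goblet genes, and 17.6% of those were members, within the 15.3% to 28.7% of the other libraries. Its title ends in a different letter from that of the other GK5b library. Chgb differed by -1.19 on the log2 scale between Lgr5-positive and Lgr5-zero wells in replicate 1 (69.3 against 165 CPM), far from the other libraries. The median log2 difference of the heat shock list was 0.456 in 1 library, also far from the others. Such a distance was looked for in 51 groups of values, and chance marks about 1 in 20 groups. The Lgr5 contrast of Cyp4v3 differed between the codes by 1.90 (GK5b minus GK5a; adjusted p = 0.0189 in limma). It was not called without wells of other lineages, where the 1 gene called was Malat1 (-1.30, adjusted p = 0.0303). Wells of the picked libraries, which enter no comparison, also met the rule: 6 of 200 used wells (3%) in picked replicate 3, 3 of 179 in picked replicate 2 and 2 of 122 in picked replicate 1. These wells hold 2 or 3 cells by their labels.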

How the results depend on the processing

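The 12 genes with the largest change in each direction, 24 in all, kept their direction in each of the 36 alternatives that gave them a value, and 798 of 817 such values stayed on their side of the threshold, while 19 no longer passed. Beside 849 higher and 1682 lower genes, the GK5b libraries alone gave 326 and 515, wells thinned to 2000 transcripts 78 and 580, the same thinning with library totals 182 and 365, wells of 4000 to 16000 transcripts 459 higher, and precision weights 1305 higher. Without wells of other lineages the counts were 536 and 1028, with a range of 357 to 603 and 802 to 1023 when 1 library was left out as well, 35 and 150 after thinning, and 886 lower with library totals. Thinning keeps 2000 transcripts of each well and so fewer transcripts in all. It also moved the median log2 fold change over all genes to -0.37, and to -0.30 without wells of other lineages. With library totals after thinning it was -0.18. Counts of lower genes after thinning carry this shift. Leaving out 1 library with all lineages kept gave 699 to 778 higher and 1433 to 1767 lower. Without the replicate block, the pairing of the 2 sums of a library, 635 and 1327 genes were called. The difference between the codes was called for 0 genes after thinning, with 801 at an unadjusted p under 0.05. The difference in genes per well, -0.929, turned to 26.5 at 4000 transcripts (exact permutation p = 0.203), to 3.5 with at least 1 Lgr5 transcript (p = 0.5), to 3.17 with at least 3, to 8.70 in the GK5a libraries (p = 0.375), and ranged from -5.67 to 3.92 when 1 library was left out; it was -15.2 without wells of other lineages (exact p = 0.0625). None of these differences in genes per well passed the threshold; the cause of the turns was not tested. The share of used wells that met the rule was 13.3% ± 5.70 (SD, n = 7), against 20.3% with at least 1 Lgr5 transcript and 8.74% with at least 3. Depth limits rare genes such as Olfm4, and replicate 6 rests on 6 member wells.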
